A study of Rattus norvegicus with 8 samples.

Results

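The genes described here are 10 immediate early genes of the rat kidney: Fos, Fosb, Fosl1, Jun, Junb, Egr1, Ier3, Myc, Maff and Klf6. They were chosen by symbol, each had 1 probe set, and they are 10 of 15037 named genes on the arrays. Of the 10, 9 passed the filter on dim probe sets. Fosl1 did not, and is given by its values alone. Male Sprague-Dawley rats, 10 weeks old, were given 1 of 4 treatments. These were control, ethylene glycol-induced nephrolithiasis, control with phlorizin, and ethylene glycol-induced nephrolithiasis with phlorizin. The stone model combined ethylene glycol, an oxalate precursor, with alfacalcidol, a vitamin D analogue, for 2 weeks, and is called EG below. Phlorizin inhibits the sodium-glucose cotransporters, and the study asked how this inhibition relates to renal stones. Total RNA of the cortex and of the outer medulla was hybridised to Clariom S arrays, 8 arrays in all, 1 per zone and treatment. It is not stated in the sources used here if RNA of 1 animal or of a pool was hybridised, nor whether the 2 zones of a treatment came from the same animals. There was thus no replicate of any group, and differences between single arrays carry no p-value.

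Immediate early genes are transcribed within minutes of a growth factor, stress or injury signal, without new protein synthesis, and their products then switch on slower programmes. Fos, Fosb and Fosl1 encode FOS proteins that pair with the JUN proteins encoded by Jun and Junb to form AP-1, a factor that binds DNA through paired basic leucine zippers. Egr1 and Klf6 encode zinc finger factors, Myc encodes a growth regulator that binds DNA with its partner MAX, and Maff encodes a small MAF protein that lacks an activation domain of its own. Ier3 encodes a stress-induced regulator of cell survival and is not a transcription factor, so the label covers 9 of the 10 genes. In the kidney such genes are known to rise early after tubule injury.

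Upstream sequences were in the RefSeq table (build GRCr8) for 6 of the 10 genes: Fosb, Fosl1, Junb, Egr1, Maff and Klf6. Those of Egr1, Klf6 and Maff are shown because they held the response elements searched for, and because Egr1 and Klf6 had high values together on the EG arrays of the cortex. Each is the 250 bases before the annotated start, read 5′ to 3′ on the gene's strand. Capitals mark matches to the CArG box, the binding site of serum response factor, to the cyclic AMP response element TGACGTCA, to the EGR site GCGNGGGCG or to the MYC and MAX E-box CACGTG.
Egr1, chr18:26736828-26737077, plus strand: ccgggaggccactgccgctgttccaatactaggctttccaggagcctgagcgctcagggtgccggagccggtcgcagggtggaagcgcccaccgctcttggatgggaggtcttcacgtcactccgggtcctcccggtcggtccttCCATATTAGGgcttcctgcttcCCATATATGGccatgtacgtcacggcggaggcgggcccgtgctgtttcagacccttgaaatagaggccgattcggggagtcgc
Klf6, chr17:69458479-69458728, minus strand: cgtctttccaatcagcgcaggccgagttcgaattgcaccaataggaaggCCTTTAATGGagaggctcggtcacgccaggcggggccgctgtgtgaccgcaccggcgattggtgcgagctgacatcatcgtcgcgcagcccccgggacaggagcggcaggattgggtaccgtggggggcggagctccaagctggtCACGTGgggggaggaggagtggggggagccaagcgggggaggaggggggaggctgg
Maff, chr7:112792537-112792786, plus strand: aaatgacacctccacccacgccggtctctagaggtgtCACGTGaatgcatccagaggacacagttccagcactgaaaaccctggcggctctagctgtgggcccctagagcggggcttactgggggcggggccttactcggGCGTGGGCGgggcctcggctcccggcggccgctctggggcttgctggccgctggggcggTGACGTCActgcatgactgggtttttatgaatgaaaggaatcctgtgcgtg

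Both strands were searched, and no match overlapped another. In Egr1 the capitals are a pair of CArG boxes, which start 105 and 83 bases before the start of the gene. In Klf6 they are a CArG box that starts 201 bases before it and an E-box at 56. In Maff they are an E-box at 213, an EGR site at 110 and a cyclic AMP response element at 51. A CArG box was found in 1.5% of the 33469 upstream sequences in the table, a cyclic AMP response element in 1.59%, an EGR site in 4.29% and an E-box in 5.59%. The AP-1 site TGANTCA, present in 6.34% of all, was in none of these 250-base windows of the 6 genes. The TATA box letters TATAAA, present in 12.9%, were in those of Junb and Fosb. In Junb they began 49 bases before the start. In Fosb they lay on the opposite strand, 180 to 175 bases before it. A match is only a run of letters, and binding was not measured.

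Values are deposited log2 expression values, so a difference of 1 is a 2-fold difference. Background probes averaged 5.53 to 5.68 on the 8 arrays, and the highest value on any array was 19.7. Array medians lay between 7.39 and 7.58. The poly-A spike-in controls of the cortex EG array averaged 6.42, against 7.46 to 8.23 on the other 7 arrays. The zones matched their labels, since 7 of 8 proximal tubule markers were lower and 5 of 6 thick ascending limb markers higher in the outer medulla by limma. Also higher there by limma were 6 of 6 fibroblast, 4 of 4 red cell, 5 of 7 endothelial, 5 of 9 tubule injury and 4 of 8 macrophage markers. Of these lists, 1 endothelial and 2 injury markers were lower. Over all tested probe sets 32.7% were higher and 18.8% lower by the same test, and the 2 of 9 injury markers are near the second share. The red cell marker Alas2 passed the filter on dim probe sets only through an outer medulla array, so its place in the red cell count is no support. The part of these cell types in the zone differences below was not tested. In bulk tissue, fewer cells of a type and less RNA per cell cannot be told apart, which holds for all results below.

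Most of the genes were higher in the outer medulla than in the cortex, whatever the treatment. In the limma fit over the 8 arrays with treatment as a block, 7 of the 9 tested genes rose in the outer medulla (Benjamini-Hochberg adjusted p under 0.05) and 0 fell. One of the 7, Fosb, passed the filter on dim probe sets only through the outer medulla, and the other 6 are Fos, Jun, Junb, Egr1, Ier3 and Klf6. Over all 13163 tested probe sets, 32.7% rose and 18.8% fell. The median difference of the 9 genes was 1.60, against 0.18 over all tested probe sets.

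Among the FOS subunits of AP-1, Fos and Fosb were higher in the outer medulla. Fos stood at 9.96 in the control cortex, 9.23 with EG, 9.19 with phlorizin and 9.82 with EG and phlorizin. The outer medulla had 12.78, 12.24, 11.62 and 11.74 in the same order. Every outer medulla array was above every cortex array, and Fos rose there by 2.54 (SE 0.21, 5.83-fold, limma adjusted p = 0.000179).
Fosb, a close relative of Fos, had 6.49, 6.14, 5.61 and 6.08 in the cortex and 7.45, 7.91, 7.97 and 7.78 in the outer medulla. Its cortex values lay within 1 of background, and the fitted difference was 1.70 (SE 0.23, limma adjusted p = 0.00139). Fosb reached the filter of 7.54 only on outer medulla arrays, so it was tested only because it was high there. Fosl1, which encodes FRA-1, had 5.69, 6.37, 5.89 and 6.08 in the cortex and 5.98, 6.30, 5.93 and 6.35 in the outer medulla. All its values were close to background and the zones overlapped, so a change of Fosl1 was not detectable here.

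Both JUN subunits were higher there as well. Junb had 8.76, 9.37, 8.78 and 9.22 in the cortex and 10.54, 10.35, 10.89 and 10.75 in the outer medulla, again without overlap. It rose by 1.60 (SE 0.21, limma adjusted p = 0.00107). Jun had 12.48, 12.89, 12.60 and 12.70 in the cortex and 13.43, 13.05, 13.80 and 13.30 in the outer medulla. Its rise of 0.73 (SE 0.20, limma adjusted p = 0.0210) was the smallest of those called, and the call was lost when the control arrays (0.66, limma adjusted p = 0.0861), the phlorizin arrays (0.57, 0.0919) or the arrays of EG with phlorizin (0.77, 0.0649) were left out. Without the EG arrays it was 0.92 (limma adjusted p = 0.00333).

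Egr1, Ier3 and Klf6 were higher in the outer medulla too, with a smaller gap on the EG arrays than on the controls. The test of that difference in gap is given with the EG results and did not pass. The gap was also smaller with EG for Jun (0.17 against 0.95) and Junb (0.98 against 1.78). It was larger for Fos (3.01 against 2.82) and Fosb (1.77 against 0.96). Egr1 had 13.47 in the control cortex, 15.38 with EG, 13.72 with phlorizin and 14.98 with both, and 16.52, 16.25, 16.90 and 16.35 in the outer medulla. The zones did not overlap, and Egr1 rose by 2.12 (SE 0.42, limma adjusted p = 0.00607), yet the gap was 3.05 in controls and 0.86 in EG rats. Ier3 had 9.18, 11.22, 10.05 and 10.83 in the cortex and 11.45, 12.00, 12.13 and 12.63 in the outer medulla. It rose by 1.73 (SE 0.26, limma adjusted p = 0.00202), with a gap of 2.27 in controls and 0.77 in EG rats. Under phlorizin its gap was 2.08 without EG and 1.81 with it. Klf6 had 10.67, 12.83, 11.27 and 12.31 in the cortex and 12.58, 13.26, 13.79 and 13.57 in the outer medulla. Here the zones overlapped, since the EG cortex was above the control outer medulla. Klf6 rose by 1.53 (SE 0.33, limma adjusted p = 0.00860), and its gap was 1.90 in controls and 0.43 in EG rats.

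Myc and Maff did not pass the test between zones. Myc differed by 0.22 (SE 0.18, limma adjusted p = 0.347). Maff had 6.08, 6.50, 6.72 and 7.45 in the cortex and 6.70, 7.06, 7.65 and 7.39 in the outer medulla, a difference of 0.51 (SE 0.19, limma adjusted p = 0.0603). Without the arrays of EG with phlorizin, Maff passed (0.70, limma adjusted p = 0.0330). The zones overlapped for both. By single treatments, 5 of the 9 tested genes were at least 1 higher in the outer medulla of controls, 2 (Fos and Fosb) in EG rats, 7 with phlorizin and 6 with EG and phlorizin. The same held for 17.1%, 11.1%, 19.9% and 20.0% of all tested probe sets, and 0 of the 9 were at least 1 lower, against 13.0%, 8.39%, 13.8% and 12.9%. Among all 9 tested genes the zones did not overlap, with the outer medulla higher, for 6 (Fos, Fosb, Jun, Junb, Egr1 and Ier3), against 24.7% of all tested probe sets, and 0 had it the other way, against 14.3%. Fosb is in that count through the filter. The same holds for its place in the counts of EG rats, of phlorizin and of EG with phlorizin, which is no support.

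**Figure D1:**
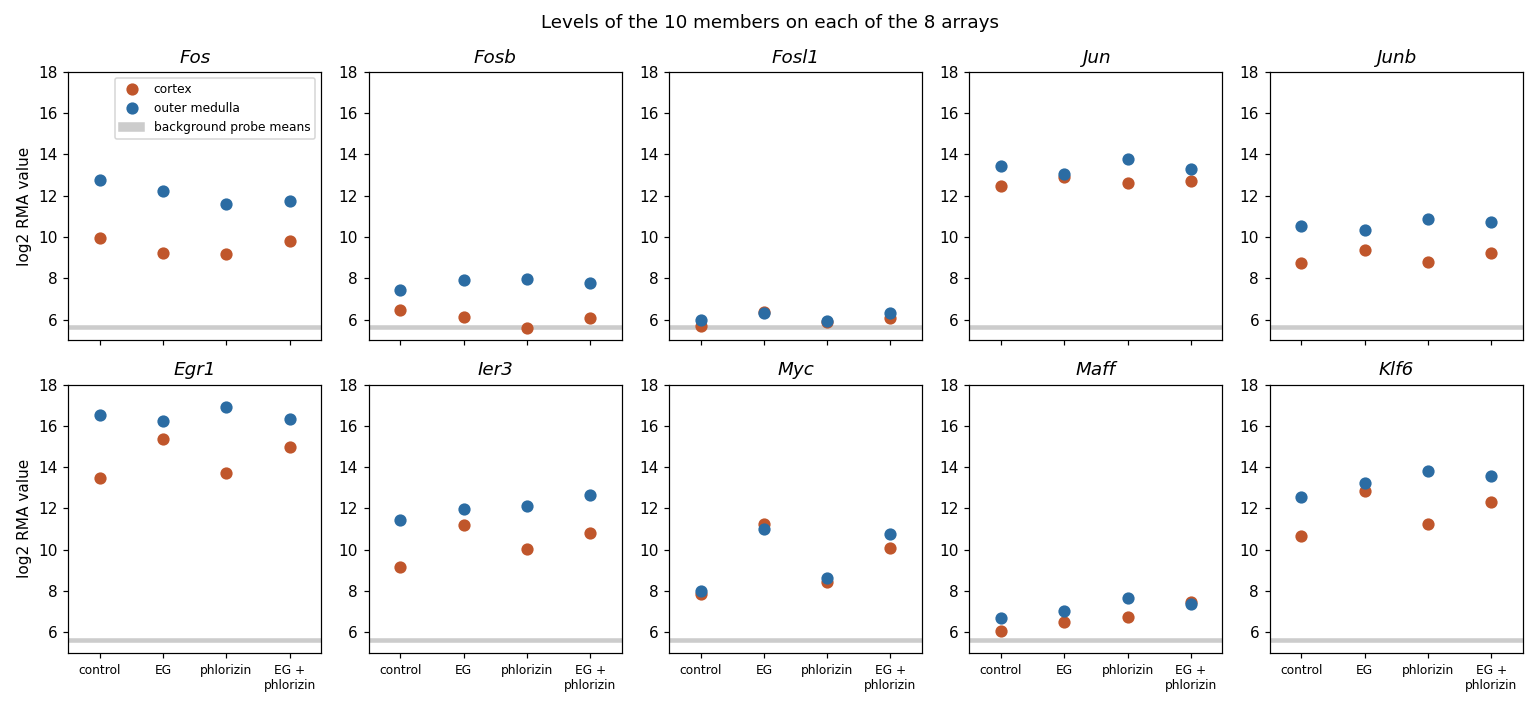
Level of each of the 10 genes (log2 value, y axis) on the 8 arrays, by treatment (x axis) and zone (colour), 1 array per point, with the range of the mean background probe value as a grey band. Fos stays 1.92 or more apart between zones, Egr1 and Klf6 of the cortex come close to the outer medulla with EG, Myc is high on all 4 EG arrays, and Fosl1 stays near background.

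**Figure D2:**
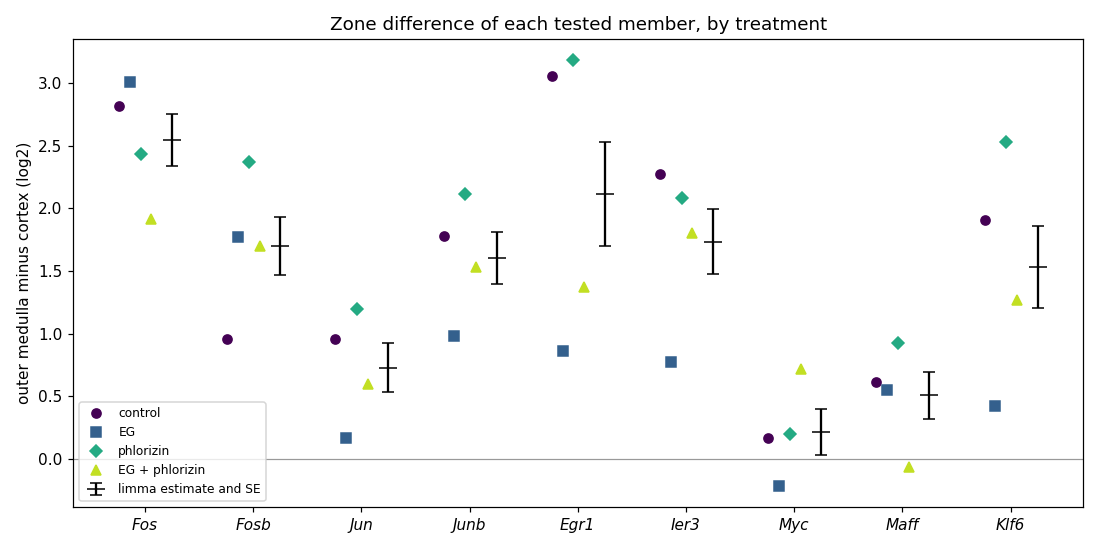
Outer medulla minus cortex (log2, y axis) for the 9 tested genes, 1 point per treatment, with the limma estimate and its SE in black. The gap of Egr1 is 3.05 and 3.18 without EG but 0.86 and 1.37 with it, while that of Fos is 3.01 in EG rats.

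The control cortex was the lowest of the 8 arrays for 7 of the 9 tested genes (Jun, Junb, Egr1, Ier3, Myc, Maff and Klf6). This held for 12.1% of all tested probe sets. The phlorizin outer medulla was the highest for 6 of the 9 (Fosb, Jun, Junb, Egr1, Maff and Klf6), against 13.0% of all tested probe sets. Maff reached the filter only on that array, and Fosb only on outer medulla arrays, so for Maff the filter itself fixed the highest array and for Fosb its zone. With 1 array per group the order of neighbouring arrays has no error estimate.

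Related genes, listed with earlier results of these data known, differed between zones in part as the 10 genes did. Of 23 tested other immediate early genes, 16 rose in the outer medulla and 2 fell, with a median difference of 0.92. Of 9 other AP-1, ATF and MAF genes, 6 rose and 2 fell. Over all tested probe sets 32.7% rose and 18.8% fell, a share of falls near that of the AP-1 list. Fosl2, the FOS family member FRA-2, was at 6.57 to 9.26 in the cortex and 10.33 to 11.90 in the outer medulla, and rose by 3.33 (SE 0.38, limma adjusted p = 0.000619). Ptgs2, which encodes cyclooxygenase 2, rose by 4.96 (SE 0.47, limma adjusted p = 0.000325). Maf, a large MAF factor, fell by 3.56 (SE 0.29, limma adjusted p = 0.000184). Of 14 tested upstream factors and ERK feedback genes, 9 rose and 1 fell. Elk3, a partner of serum response factor, rose by 2.06 (SE 0.30, limma adjusted p = 0.00181).

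EG was accompanied by high Myc in both zones, and by high Egr1, Ier3 and Klf6 in the cortex. With a difference of at least 1 as the mark, 4 of the 9 tested genes stood higher with EG than in the control cortex, against 9.66% of all tested probe sets. Myc alone did so in the outer medulla, against 8.58%. None of the 9 was at least 1 lower in either zone, where 12.7% and 9.69% of all tested probe sets were. Fos and Fosb, the classical first responders, were not among the genes that were higher.

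Myc had 7.84 in the control cortex, 11.24 with EG, 8.44 with phlorizin and 10.07 with EG and phlorizin. Its outer medulla values were 8.01, 11.02, 8.65 and 10.79. All 4 EG arrays were above all 4 others, with 10.07 as the lowest of the first and 8.65 as the highest of the second. The EG difference was 3.39 in cortex and 3.01 in outer medulla, and under phlorizin 1.62 and 2.14. Myc was thus at least 1 higher with EG in all 4 pairs of arrays, the only one of the 9 tested genes for which this held, and 0.934% of all tested probe sets did the same. Ier3 and Myc were the 2 of the 9 above 0 in all 4 pairs, against 17.1% of all tested probe sets.

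Over both zones and both phlorizin arms, the limma fit on 4 zone-averaged profiles called none of the 9 tested genes for EG, and 0.0380% of all tested probe sets. By unadjusted limma p under 0.05 it marked 4 of the 9 (Myc, Ier3, Klf6 and Egr1), against 22.7% of all tested probe sets. Myc differed by 2.54 (SE 0.34, limma adjusted p = 0.0708), a 5.83-fold difference that missed the threshold. That fit has 1 residual degree of freedom and takes any change of the EG difference between phlorizin arms as error. For Myc the adjusted p lay between 0.0110 and 0.188 over the alternative settings. It passed with arrays centred on their medians (2.50, limma adjusted p = 0.0110), with no filter (2.54, 0.0166) and in the outer medulla alone (2.58, 0.0310). With the 8 arrays as samples and treatment as a random block it passed too (2.54, limma adjusted p = 0.0111). That setting counts the zones of a treatment separately, though they can share animals, and its block correlation was -0.1. In the cortex alone Myc differed by 2.51 (limma adjusted p = 0.140).

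The cortex differences of Egr1, Ier3 and Klf6 were 1.91, 2.04 and 2.16 without phlorizin. In the outer medulla the same genes differed by -0.27, 0.55 and 0.68. The cortex values rest on the EG array with the low spike-in controls. The cortex pair without it, EG with phlorizin against phlorizin, gave 1.26, 0.78 and 1.04.
In that pair 3 of the 9 genes (Myc, Egr1 and Klf6) reached the mark of 1 upwards and 0 downwards, as did 2.43% and 1.55% of all tested probe sets. The same pair of the outer medulla had 1 higher (Myc) and 0 lower, against 3.65% and 3.01%. In the fit over both zones Ier3 differed by 0.97 (SE 0.25, limma adjusted p = 0.107), Klf6 by 0.91 (SE 0.29, limma adjusted p = 0.146) and Egr1 by 0.59 (SE 0.23, limma adjusted p = 0.202). Ier3 passed only with treatment as a random block (0.97, limma adjusted p = 0.0464), the setting that counts the zones of a treatment separately. Its limma adjusted p-values were 0.0464 to 0.218 over the alternatives.

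The remaining genes differed by less than 1 with EG in every pair. Fos differed by -0.73 in cortex and -0.54 in outer medulla, and under phlorizin by 0.64 and 0.12. Fosb differed by -0.35 and 0.46, Jun by 0.41 and -0.38, Junb by 0.61 and -0.19, and Maff by 0.42 and 0.35. Fosl1 differed by 0.68 and 0.32, from values at background.

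**Figure D3:**
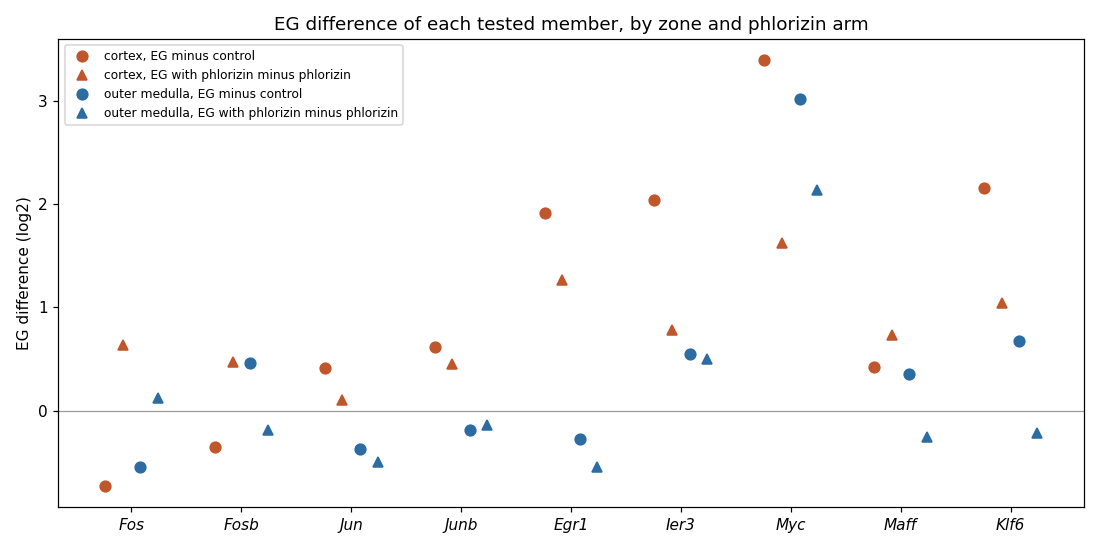
EG difference (log2, y axis) of the 9 tested genes, with colour for the zone and shape for the arm without (circle) or with phlorizin (triangle), 1 pair of arrays per point. Myc lies between 1.62 and 3.39 in all 4 pairs, and for Egr1 both cortex points are above 0 and both outer medulla points below it.

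Whether EG differed between the zones was tested on the 4 outer medulla minus cortex differences. Limma called 0 of the 9 genes and 0% of all tested probe sets. By unadjusted limma p under 0.05 it marked 3 (Egr1, Klf6 and Jun) of the 9, against 12.4% of all tested probe sets. The EG difference of Egr1 was 2.00 smaller in the outer medulla (limma difference -2.00, SE 0.28, adjusted p = 0.199). For Klf6 it was -1.37 (SE 0.27, limma adjusted p = 0.240), for Ier3 -0.89 (SE 0.38, limma adjusted p = 0.438) and for Myc 0.07 (SE 0.33, limma adjusted p = 0.950). For Egr1, Jun and Junb both cortex pairs lay above 0 and both outer medulla pairs below it, 3 of the 9 tested genes against 4.36% of all tested probe sets. No difference of the EG values between zones was shown after adjustment.

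Other lists were set beside these values. Of the 23 tested other immediate early genes, 5 reached the mark of 1 upwards and 3 downwards on the cortex EG array, and 7 and 2 in the outer medulla. Over all tested probe sets 9.66% and 12.7% did so in the cortex and 8.58% and 9.69% in outer medulla, so the downward counts are near the share of all. Their medians of 0.01 and 0.34 compare with -0.07 and -0.05 over all tested probe sets. Egr2, a relative of Egr1, had 6.11 without and 9.02 with EG in the cortex, and 7.10 without and 9.37 with it in outer medulla. Egr2 reached the filter only on arrays of EG rats, so its place in the upward counts of both zones is no support. Ccn2, which encodes connective tissue growth factor, differed by 1.46 and 2.83. Cebpd, an acute-phase factor gene, went from 6.99 to 8.64 and from 8.13 to 9.63. Ptgs2 differed the other way, by -2.45 and -2.19. Among AP-1 relatives, Atf3, a stress-induced factor gene, differed by 1.86 and 1.78, Fosl2 by 2.24 and 0.86, and Jdp2, an AP-1 repressor gene, by -0.40 and -1.59. Of the 14 upstream factors and ERK feedback genes, 1 was at least 1 higher in each zone and 1 lower in the outer medulla, with medians of 0.18 and -0.32. In the limma fit of EG, none of the 23 immediate early or 9 AP-1 genes was called.

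Genes known to respond to AP-1 or MYC were mixed. Of 10 tested AP-1 targets, 5 reached the mark of 1 upwards in both zones with EG, against 4.90% of all tested probe sets. The first of them by the naming rule were Mmp12 (4.14 and 6.92, from values below background in the outer medulla), Timp1 (4.81 and 4.73) and Cd44 (4.31 and 2.16). Mmp12 reached the filter only on arrays of EG rats, so its place in that count is no support. Another target, Mmp9, was at least 1 lower in the cortex, and 0 targets were in the outer medulla. Of 16 tested MYC partners and targets, 0 were at least 1 higher in both zones. Npm1, a nucleolar protein gene, differed by 1.36 and 0.94, Cdk4 by 0.50 and 1.18, and Odc1, the classical MYC target of polyamine synthesis, by -1.59 and -0.60. The medians of that list were 0.44 and 0.13.

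Markers of other cells moved with EG as well. All 8 tested macrophage markers were at least 1 higher in cortex and 7 in outer medulla, and their mean level went from 8.11 to 10.81 and from 9.24 to 11.38. With EG and phlorizin it was 8.96 and 10.37. One of these markers, Cd163, reached the filter only on the EG arrays without phlorizin, so its place in the counts and means is no support. Over all tested probe sets 9.66% in cortex and 8.58% in outer medulla were at least 1 higher, and 12.7% and 9.69% lower. All 6 tested fibroblast markers differed by 1 or more upwards in each zone, with mean levels from 11.85 to 14.62 and from 13.02 to 15.78. Of 9 tubule injury markers 7 and 8 were at least 1 higher, with mean levels from 9.69 to 13.75 and from 11.16 to 14.27. Of the 6 thick ascending limb markers, 6 and 5 were at least 1 lower, and of the 8 proximal tubule markers 2 and 4, while 1 proximal marker (Cubn, by 1.02) was at least 1 higher in the outer medulla. None of the 4 neutrophil markers on the array passed the filter on dim probe sets. Endothelial markers differed by medians of -0.68 and -0.97, and red cell markers by -3.46 and -2.70. The part of these cells in the values of Myc, Egr1, Ier3 and Klf6 was not tested.

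Phlorizin alone was accompanied by small differences in several of the genes. The limma fit of phlorizin averages the arms with and without EG, so it does not test phlorizin alone. It called none of the 9 genes and 0% of all tested probe sets. By unadjusted limma p under 0.05, 1 (Maff) of the 9 was marked, against 3.56% of all tested probe sets. Maff was tested only because its phlorizin outer medulla value, 7.65, reached the filter, so its place in that count is no support. Maff was higher by 0.72 over both EG arms (SE 0.21, limma adjusted p = 0.995).

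The single-array differences from control share the control arrays with those of EG. Phlorizin values were higher in both zones for 7 of the 9 genes (Jun, Junb, Egr1, Ier3, Myc, Maff and Klf6), where 21.0% of all tested probe sets did the same. At least 0.5 higher in both zones were 4 of the 9, against 0.684% of all tested probe sets. Maff is in both counts through the filter. Klf6 differed by 0.59 in cortex and 1.21 in outer medulla, Maff by 0.64 and 0.95, Ier3 by 0.87 and 0.68, and Myc by 0.60 and 0.64. Fos differed the other way, by -0.78 and -1.16. At the mark of 1, Klf6 in the outer medulla was the only one of the 9 genes that was higher (0.577% of all tested probe sets), and Fos there the only one that was lower (0.205%). In the cortex 0 of the 9 were at least 1 higher or lower, against 0.653% and 0.501% of all tested probe sets.
Atf3 had 9.04 in the control and 10.23 in the phlorizin cortex, and 10.28 and 11.88 in the outer medulla, differences of 1.19 and 1.60. Plk2, a stress kinase gene, differed by 0.82 and 1.41, and Gadd45b, a growth arrest gene, by 0.84 and 1.14. These last 2 genes were picked after their values were seen. Of the 23 tested genes of their list, 0 were at least 1 higher in the cortex and 3 in outer medulla, with medians of 0.14 and 0.39. Others, picked the same way, lay lower, such as Klf2 (-0.54 and -0.85) and Egr2 (-0.36 and -0.40). The macrophage and injury marker lists had medians of 0.04 and 0.24 in cortex and -0.24 and -0.17 in outer medulla with phlorizin alone.

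**Figure D4:**
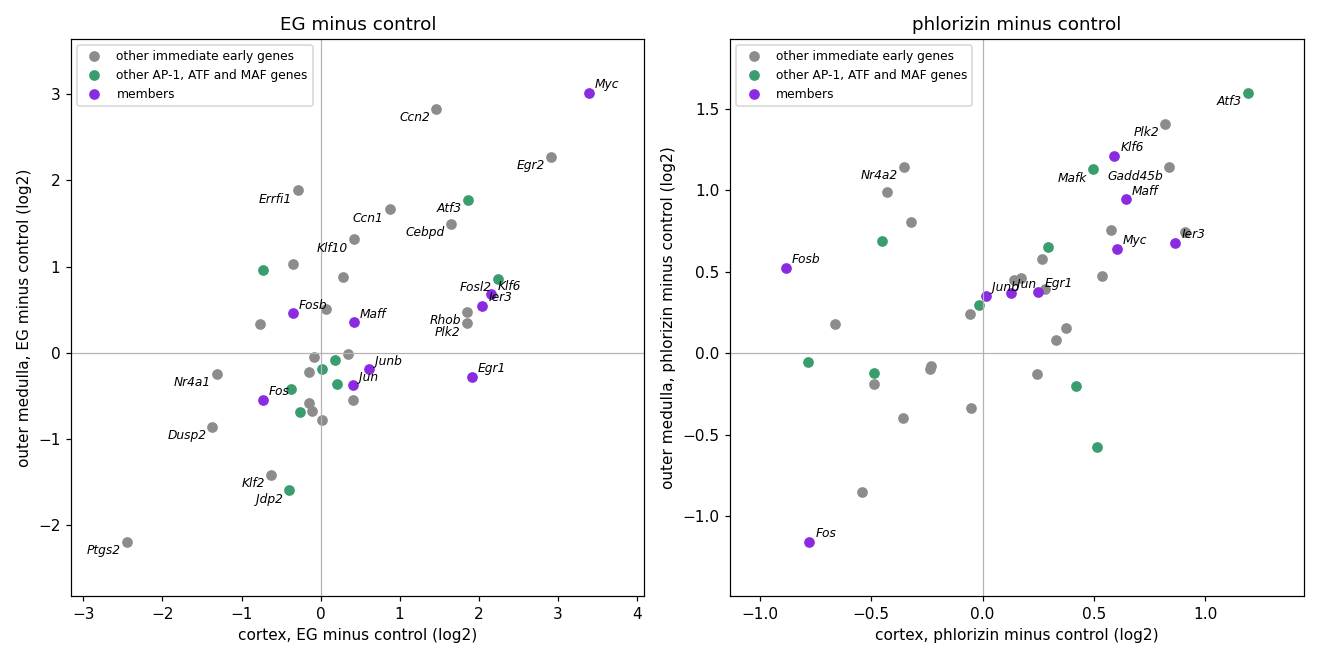
Difference in the cortex (x axis, log2) against that in the outer medulla (y axis, log2) for the 9 tested genes and related lists, EG minus control on the left and phlorizin minus control on the right, 1 gene per point. On the left Myc lies at 3.39 and 3.01, near Egr2. On the right Klf6, Maff, Ier3 and Myc lie above 0.5 in both zones and Fos below 0 in both.

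Among EG rats, the array of those given phlorizin was set against that of those without it. In the cortex 1 of the 9 genes (Myc) was at least 1 lower, against 6.18% of all tested probe sets, and 0 were at least 1 higher, against 7.35%. In the outer medulla 0 of the 9 were at least 1 apart, where 3.35% of all tested probe sets were higher and 4.34% lower. Myc differed by -1.17 in cortex and -0.23 in outer medulla, and Egr1 by -0.40 and 0.10. Maff was 0.95 higher in the cortex, which became more than 1 with either other normalization. The cortex comparison uses the EG array with the low spike-in controls, and all 8 tested macrophage markers were at least 1 lower in it. Cd163 is in that count through the filter. The part of these markers in the values was not tested.

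The EG difference was smaller with phlorizin than without for several genes. In the cortex it was at least 1 smaller for 3 of the 9 (Myc, Klf6 and Ier3), against 7.57% of all tested probe sets. In the outer medulla 0 of the 9 were at least 1 smaller, against 5.52%. For Myc the change of the EG difference was -1.77 in cortex and -0.87 in outer medulla, for Klf6 -1.12 and -0.89, and for Ier3 -1.26 and -0.04. The change was below 0 in both zones for 5 of the 9 (Egr1, Ier3, Jun, Klf6 and Myc), against 28.6% of all tested probe sets. Fos went the other way, with 1.37 in cortex and 0.66 in outer medulla. These values use 4 single arrays each and carry no test, and those of the cortex use the EG array with the low spike-in controls. In the outer medulla, Klf6 was 0.32 higher and Ier3 0.64 higher with EG and phlorizin than with EG, and they were 1.21 and 0.68 higher with phlorizin than in controls. Their EG arrays were thus not lower with phlorizin there.

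Genes whose pattern was most like that of each of the 9 were sought among 1039 named genes, over the 8 arrays and after each zone's mean was removed. The arrays are shared by all genes, so the correlations are a description. Myc was matched most closely by Rbm3 (Pearson r = 0.98), Cd14 (0.98) and Fblim1 (0.98). Ier3 and Klf6 were among each other's nearest, with r = 0.95, and both had Pvr beside them (0.945 and 0.95). Egr1 was nearest to Cldn4, Ch25h and F2r (each 0.94), and Junb to F2rl1 (0.95) and F2r (0.865), genes of protease-activated receptors, while Klf6 was the third (0.86). Jun was nearest to Rrad (0.98), Fam43a (0.92) and Corin (0.90). After the zone means were removed, Jun spanned only 0.75 and Junb 0.62, against 3.45 for Myc. The genes they were matched with had to span at least 2. Fos, Fosb and Maff had no close match, with highest correlations of 0.62 for Cpn1, 0.57 for Tcp11 and 0.77 for Inmt.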

How the data were processed

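Per the submitters' processing notes, the authors used RMA, which corrects background, normalizes and summarises probes. For RMA's version, nothing was given in the sources used here. Output of RMA fills the deposited table and was read as log2 values because they range from 2.40 to 19.7. Of 24834 probe sets, 1646 control probe sets were left out, and 15049 of the other 23188 had 1 gene symbol in the platform annotation. The probe set with the highest mean stood for a symbol. A filter kept a probe set if any array reached 7.54, the overall median, which left 13163 for testing.

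Tests used limma 3.58.1 in R 4.3.3, 2-sided, with Benjamini-Hochberg adjustment over all tested probe sets at 0.05. EG and phlorizin were fitted on 4 profiles, each the mean of both zones of a treatment. Zones were compared over 8 arrays with treatment as a block, and EG between zones on the 4 zone differences. The p-values measure the spread between these arrays, not between animals. In the zone fit that spread is how the outer medulla minus cortex gap varied over the 4 treatments. Any change of the gap with treatment thus counts as error there. Single arrays were compared by a difference of at least 1, and the change of the EG difference by phlorizin was added after the data were seen. The scripts were tested on simulated data. The genes, lists and tests were chosen with earlier results of these data known. Named were the 10 genes, up to 4 genes of each list with the largest EG differences, and the 3 genes most like each member among those that span at least 2. Not every gene that this rule names is printed. Other steps ran in Python 3.11.15 (numpy 2.4.6, pandas 2.3.3, matplotlib 3.10.9).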

Additional observations from a re-analysis of the deposited data

Results flagged for a closer look

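For 3 genes both cortex pairs lay above 0 with EG and both outer medulla pairs below it, which 4.36% of all tested probe sets also showed. The difference was tested by limma and passed for none of them. The EG difference of Egr1 in the outer medulla minus that in the cortex was -2.00 (limma adjusted p = 0.199, and 0.0629 to 0.231 over the alternatives), from 1.91 and 1.26 in the cortex and -0.27 and -0.55 in the outer medulla. That of Jun was -0.70 (limma adjusted p = 0.403), from 0.41 and 0.10 against -0.38 and -0.50. That of Junb was -0.69 (limma adjusted p = 0.403), from 0.61 and 0.45 against -0.19 and -0.14.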

How the results depend on the processing

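The precision is limited by 1 array per group, and by signal over background for Fosb, Fosl1 and Maff. Zones could not be paired by animal, since it is not stated whether both zones of a treatment came from the same animals. The zone fit is blocked by treatment instead, and EG between zones uses the differences within each treatment. Leaving an array out of the 4-profile fit of EG would leave no residual degree of freedom, and was not run for the random block. Of the alternative values of single genes, 314 kept their direction and side of the threshold, 9 changed sign, 8 newly passed the threshold and 3 lost it. Between zones, 7 genes were called under every alternative except the stricter filter (6, which leaves out Fosb), an adjusted p under 0.1 (8) and when a treatment was left out (6 to 7). Probe sets called between zones then numbered 4667 to 7480. Maff was the gene added at 0.1, and it is among the 7 called without the arrays of EG with phlorizin. Its filter was reached only in the outer medulla, so its place in these counts is no support.

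For EG, genes called went from 0 to 1 with arrays centred on their medians, with no filter, at an adjusted p under 0.1 and in the outer medulla alone (Myc each time), and to 2 with the 8 arrays as samples and treatment as a random block. Probe sets called for EG went from 5 to 0 with quantile normalization, 872 with centred arrays, 631 with no filter, 3 with a trend and robust prior, 745 at an adjusted p under 0.1, 1692 with the random block and 355 in the outer medulla alone. Those called for EG between zones went from 0 to 9 with quantile normalization, 4 with no filter or at 0.1, and 112 with the other prior. The causes were not tested.

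Centring turned the phlorizin difference of Myc from -0.04 to 0.021. The fits of each zone alone were added after the data were seen. In the cortex alone the EG difference of Jun was 0.25, and phlorizin differences were -0.030 for Jun, -0.066 for Junb and -0.075 for Egr1. In the outer medulla alone the EG difference was -0.165 for Junb and -0.41 for Egr1, and phlorizin differences were 0.20 for Fosb and 0.20 for Myc. Each of these has the opposite sign over both zones, and none passed the threshold.

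With 0.5 in place of 1 as the mark, the genes apart went from 1 to 4 for EG in the outer medulla, from 3 to 6 and from 1 to 4 for EG under phlorizin in the cortex and the outer medulla, from 1 to 4 and from 0 to 1 for phlorizin in EG rats, and from 0 to 6 and from 2 to 6 for phlorizin alone. With 2 they fell to 0 for EG under phlorizin in the cortex, phlorizin in EG rats in the cortex and phlorizin alone in the outer medulla. For phlorizin in EG rats in the cortex, quantile normalization and centring each gave 2, with Maff added to Myc. The array medians of that comparison differ by -0.12, which centring removes.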
